A study of Mus musculus with 2 samples.

Results

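Arg1-high tumour macrophages are the tumour macrophages in which transcripts of Arg1, the arginine-degrading enzyme arginase 1, take up at least 0.1% of all captured RNA molecules. They were chosen by measured values. A barcode was a member when it had at least 200 genes, at most 10% mitochondrial unique molecular identifiers (UMIs) and at least 2000 UMIs. It also needed at least 2 UMIs of Csf1r (the CSF1 receptor) and Adgre1 (the F4/80 antigen) together, no UMI of Cd3e or Ncr1, Arg1 at or above that 0.1%, and under 0.1% for the interferon genes Rsad2, Ifit1, Ifit2 and Ifit3 together. The rule found 601 members among 9006 barcodes of the PTIR1 library and 637 among 10833 barcodes of the mock library, 1238 of 19839 in all. The levels of Arg1, Csf1r and Adgre1 are given below as a description only, and those of the other 6 genes of the rule are not compared.

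Both libraries were made from CT26 tumours, a transplantable colon carcinoma line of BALB/c origin, in BALB/c mice. In the PTIR1 library the tumours expressed PTIR1, which the series title calls a suppressor of the immunoproteasome, and in the other they were labelled mock. The labels name the cells as lymphocytes that had entered the tumour, although macrophages are among them. Cells were captured by droplet 3′ single-cell RNA sequencing, and there was 1 library per group. There was thus no replicate and no significance test, and the intervals given with values are 95% ones for counting error alone. The number of tumours behind each library, the number of CT26 clones and any sorting are not given in the sources used here, and the level of PTIR1 was not analysed here.

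The PTIR1 library held 98540561 UMIs with a median of 4933 per barcode, and the mock library 95166611 with a median of 2357. Members were of like depth, with medians of 15756 UMIs and 3521 genes in the PTIR1 library and 15295 UMIs and 3496 genes in the mock library, and 2.17% mitochondrial UMIs in both. The libraries shared 30 barcode sequences, among them 3 PTIR1 members and 2 mock members, and no sequence was a member in both. The 10 macrophage markers outside the rule were all detected, with summed levels of 24766 CPM (counts per 1000000 UMIs of the group) in PTIR1 members and 28379.5 CPM in mock members. The T cell marker list summed to 16.1 and 20.01 CPM in the same order, and the NK cell list to 67.6 and 40.0 CPM. The macrophage markers were thus met in both libraries. The T and NK cell sums give no separate support, since the rule left out barcodes with a Cd3e or Ncr1 UMI. The neutrophil list summed to 1153 CPM in PTIR1 and 701 CPM in mock members, and the B cell, fibroblast and CT26 lists are given further on. The plasmacytoid dendritic cell list, which holds genes that macrophages also express such as Bst2 and Irf8, summed to 681 CPM in PTIR1 and 614 CPM in mock members, and the endothelial list to 47.8 and 46.6 CPM.

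Macrophages in tumours derive largely from blood monocytes and take on different programmes with their place in the tissue. Arginase 1 turns arginine into ornithine and urea, takes substrate from nitric oxide synthase and from T cells, and is a common marker of suppressive myeloid cells. In macrophages it is known to be induced by interleukin 4 signalling, by lactate and by low oxygen through hypoxia-inducible factors (HIF), which bind short DNA elements near genes of glucose uptake, lipid storage and vessel growth. MHC class II molecules, the presenters of peptides to CD4 T cells, are governed by the activator CIITA through a promoter module that ends in a CCAAT box read by the factor NF-Y, and interferon gamma induces them in macrophages.

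The promoter windows below show the letters of those elements in genes of the class II and hypoxia response lists, which are set against the Arg1 level further on. They were read from RefSeq on build GRCm38.p6, whose strain is not BALB/c, and run 5′ to 3′ in the gene's direction upstream of its most upstream start. Capitals mark CCAAT, or ATTGG for the other strand, in the class II genes.
H2-Eb1, chr17:34305807-34305861, plus strand: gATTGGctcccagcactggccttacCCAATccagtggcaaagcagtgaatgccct
H2-Aa, chr17:34287842-34287896, minus strand: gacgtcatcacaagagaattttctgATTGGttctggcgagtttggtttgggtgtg
H2-DMb1, chr17:34153105-34153159, plus strand: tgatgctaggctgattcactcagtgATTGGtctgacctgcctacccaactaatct
H2-DMb2, chr17:34145134-34145188, plus strand: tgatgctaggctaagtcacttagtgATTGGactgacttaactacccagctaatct
In the hypoxia response genes, capitals mark ACGTG, the core of the HIF element, or CACGT for the other strand, with a joint run where the matches overlap.
Egln3, chr12:54204074-54204124, minus strand: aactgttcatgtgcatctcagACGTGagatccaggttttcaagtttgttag
Bnip3, chr7:138909584-138909638, minus strand: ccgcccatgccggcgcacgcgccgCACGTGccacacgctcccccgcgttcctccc
Ddit4, chr10:59951928-59951982, minus strand: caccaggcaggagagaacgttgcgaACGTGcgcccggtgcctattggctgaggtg
Slc2a1, chr4:119108684-119108738, plus strand: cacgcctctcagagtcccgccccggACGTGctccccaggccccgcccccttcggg
CCAAT was present on either strand within 250 bases upstream in 5 of 6 matched class II promoters (83.3%), out of 9 genes listed, against 34.5% of 27025 promoters of all genes. ACGTG was present in 7 of 17 matched hypoxia response promoters (41.2%), out of 20 genes listed, against 16.5% of all. A match describes the letters of the window and is no evidence of binding, and Arg1 is named only.

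The first question was how large the Arg1-high group was in each library. Among gated macrophages, the group made up 41.2% in the PTIR1 library (601 of 1459, exact binomial interval 38.7 to 43.8%) and 31.1% in the mock library (637 of 2051, 29.1 to 33.1%), a ratio of 1.33 (1.21 to 1.45). Gated macrophages as a whole were a smaller part of the PTIR1 library, with 26.4% of barcodes with at least 2000 UMIs, against 40.4% in the mock library. Of those deep barcodes Arg1-high macrophages were therefore 10.9% in the PTIR1 library (10.1 to 11.7%) and 12.6% in the mock library (11.7 to 13.5%), a ratio of 0.865 (0.779 to 0.961). The direction of that ratio depends on which barcodes are counted. It was 1.16 (1.04 to 1.29) over all barcodes past the gene and mitochondrial filters, and 1.03 (15.1% and 14.7%) once barcodes with over 0.05% of UMIs from marker pairs of another lineage were left out, whereas the ratio over gated macrophages was 1.35 there. The lineage limit applied to all deep barcodes, so it also took cells of the other lineages themselves out of the denominator. Shares describe the captured cells.

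**Figure D1:**
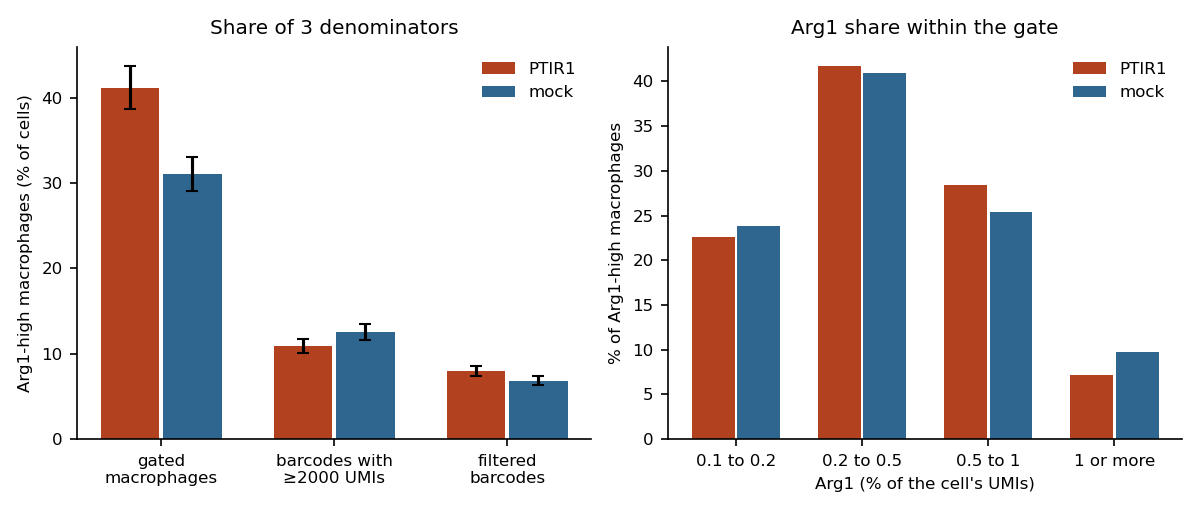
Arg1-high macrophages as a percentage of 3 denominators (left, bars with exact 95% binomial intervals) and their division by Arg1 share of UMIs (right, percent of members). The PTIR1 library stands above the mock library among gated macrophages (41.2% and 31.1%) and below it among barcodes with at least 2000 UMIs (10.9% and 12.6%), and the division by Arg1 range is alike.

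Within the gate the level of Arg1 itself was alike. The median Arg1 share of a member's UMIs was 0.368% in the PTIR1 library and 0.359% in the mock library, and the highest was 2.02% and 2.49%. Summed over members, Arg1 (on chromosome 10, 24915221 to 24927484, minus strand) had 4401 CPM in PTIR1 and 4492 CPM in mock members. Csf1r had 300.4 CPM in PTIR1 and 327 CPM in mock members, and Adgre1 72.3 and 69.5 CPM. The threshold cuts a continuous range. In the PTIR1 library 36 cells lay just inside it (0.1 to 0.12% Arg1) and 41 just outside (0.08 to 0.1%), and in the mock library 43 and 48. Hilpda, which encodes a lipid droplet protein induced by low oxygen, had 261 CPM just inside and 618 CPM just outside in the PTIR1 library, and 244 and 165 CPM in the mock library.

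Thbs1 and Hilpda, which are not in the rule, were also compared. Thbs1, the matrix glycoprotein thrombospondin 1, had 1667 CPM in Arg1-high and 1112 CPM in Arg1-low cells of the PTIR1 library, and 989 and 533 CPM in those of the mock library. Hilpda had 802 CPM in Arg1-high and 334 CPM in Arg1-low cells of the PTIR1 library, and 517 and 125 CPM in those of the mock library. Both genes were thus higher in Arg1-high than in Arg1-low cells of each library, and higher in the PTIR1 library in either group. Interferon-stimulated macrophages, gated macrophages with at least 0.1% for the 4 interferon genes, had 1050.1 and 979 CPM of Thbs1 in the PTIR1 and mock libraries and 537 and 377 CPM of Hilpda. Thbs1 in the mock library was thus close to its level in members, and Hilpda in both libraries lay between Arg1-low cells and members. At 2000 UMIs drawn from each cell, Hilpda was detected in 55.2% of PTIR1 and 46.9% of mock members (85.0% and 78.6% at full depth), in 27.9% and 16.5% of Arg1-low macrophages, and in 12.9% and 6.74% of B cells, which should lack it. B cells had median depths of 4611 and 4408 UMIs in the PTIR1 and mock libraries, and cells under 2000 UMIs were not in any of these classes.

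The next comparison set Arg1-high against Arg1-low macrophages, the cells of the same gate with under 0.1% Arg1, within each library. The threshold on Arg1 made these groups, so the values describe them. There were 735 Arg1-low cells in the PTIR1 library and 1231 in the mock library. Genes with at least 50 UMIs over both groups and a UMI in at least 5% of the cells of either were measured, and 1.5-fold was the size at which a gene was counted. Of 9777 genes measured in the PTIR1 library, 3.46% were at least 1.5-fold higher in Arg1-high cells and 7.49% at least 1.5-fold lower. Of 9522 in the mock library, 3.93% were higher and 6.81% lower. Against the Arg1-low cells with at least 0.1% C1q UMIs alone (70 in the PTIR1 and 114 in the mock library), 925 and 864 genes were higher and 1432 and 1293 lower. These were 10.1% higher and 15.6% lower of 9161 genes in the PTIR1 library. In the mock library they were 9.33% and 14.0% of 9265.

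Hypoxia response genes were higher in Arg1-high macrophages of both libraries. In the PTIR1 library 12 of 18 measured genes were at least 1.5-fold higher and none lower, with a median log2 ratio of 0.77. In the mock library 13 of 19 were higher and none lower, with a median of 0.83, while the median of all measured genes was -0.05 in the PTIR1 and -0.06 in the mock library. Egln3, an oxygen-sensing prolyl hydroxylase that marks HIF for decay, had 56.7 CPM in Arg1-high and 21.0 CPM in Arg1-low cells of the PTIR1 library, and 70.7 and 20.1 CPM in those of the mock library. Bnip3, a mitophagy receptor, had 213 CPM in Arg1-high and 93.9 CPM in Arg1-low cells of the PTIR1 library, and 253 and 107 CPM in those of the mock library. Their log2 ratios were 1.44 and 1.82 for Egln3 and 1.18 and 1.23 for Bnip3. Vegfa, the vascular growth factor, was 1.92-fold higher (interval 1.84 to 2.01) in the PTIR1 and 2.26-fold higher (interval 2.16 to 2.37) in the mock library. Car9, which encodes the hypoxia-induced carbonic anhydrase 9, was too rare to be counted in the PTIR1 library, at 2.69 CPM in Arg1-high and 3.0 CPM in Arg1-low cells of the PTIR1 library and 4.18 and 3.89 CPM in those of the mock library. The promoter windows of Egln3 and Bnip3 carry ACGTG, and so do those of genes with smaller ratios. Car9 had log2 ratios of -0.16 in the PTIR1 and 0.10 in the mock library, and P4ha1, a collagen prolyl hydroxylase, 0.46 and 0.42.

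Glycolytic genes were higher by less. All 13 measured genes had ratios above 1 in both libraries, with medians of 0.40 and 0.41 on the log2 scale in the PTIR1 and mock libraries, but 1 of 13 and 2 of 13 reached 1.5-fold. Pgk1, phosphoglycerate kinase, had 1053 CPM in Arg1-high and 671 CPM in Arg1-low cells of the PTIR1 library, and 1311 and 859 CPM in those of the mock library. Slc16a3, the lactate exporter MCT4, had log2 ratios of 0.51 in the PTIR1 and 0.61 in the mock library.

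The hypoxia response level was higher with each step of the Arg1 share. Over 6 ranges of Arg1 (0 to 0.02, 0.02 to 0.1, 0.1 to 0.2, 0.2 to 0.5, 0.5 to 1, and 1% or more of UMIs), the hypoxia response list summed to 2209, 2529.7, 2709, 3654, 4969 and 7584 CPM in the PTIR1 library and to 2197, 2394, 3011, 3675, 4843 and 7406 CPM in the mock library. The libraries lay close to each other in every range and were highest in the top one, which held 43 PTIR1 and 62 mock cells. MHC class II ran the other way, with 9638, 4953, 4330.1, 4125, 2614 and 1162 CPM in the PTIR1 library and 12654, 7420.5, 6550.4, 5018, 2884 and 1449 CPM in the mock library. Mrc1, the mannose receptor CD206, had 276, 488, 610.1, 746, 1151 and 1260.5 CPM over the same ranges in the PTIR1 library and 255, 479, 546, 700.2, 980.0 and 1735 CPM in the mock library. Arg1 itself, which is part of the total that CPM divides by, had 13188.5 CPM in the top range of the PTIR1 and 13642 CPM in that of the mock library.

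**Figure D2:**
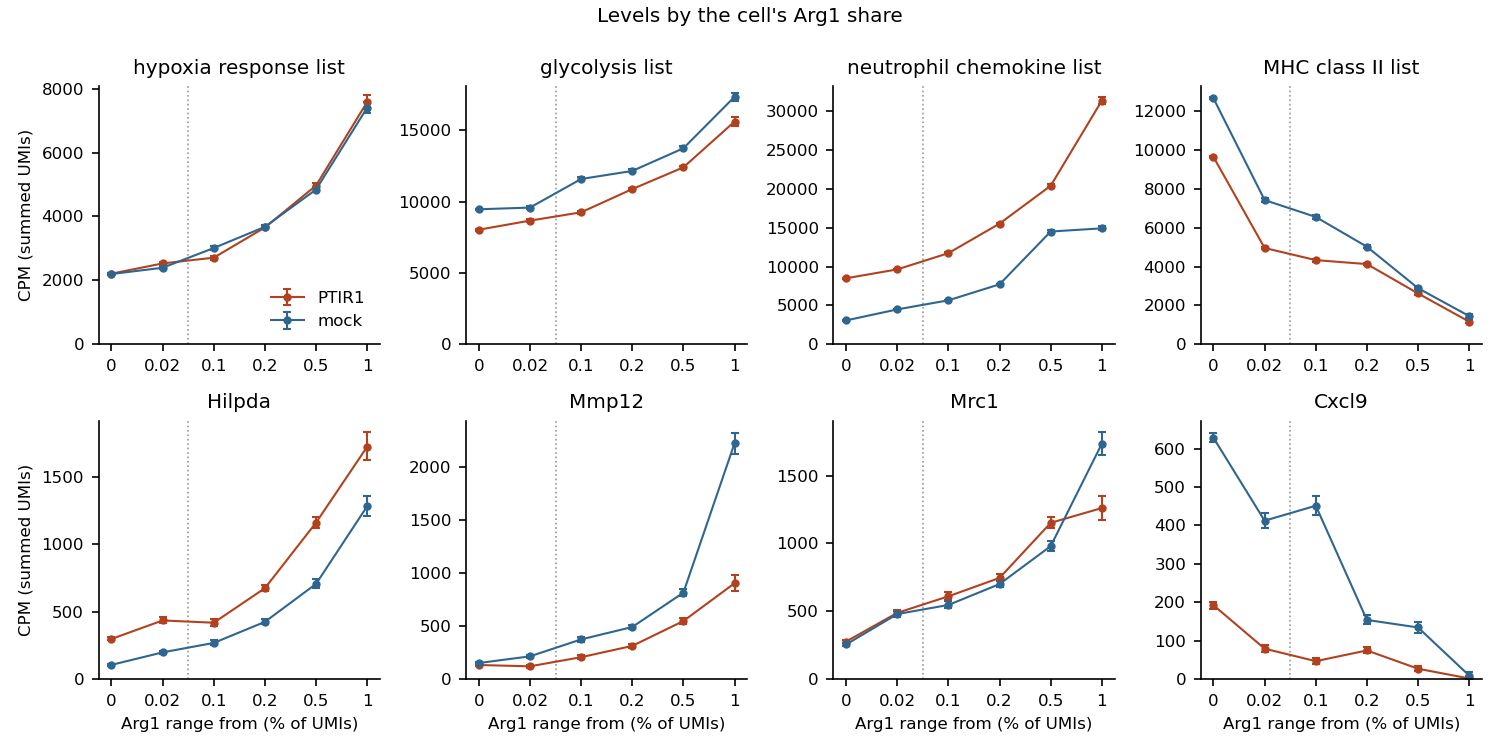
Summed levels (CPM, with exact 95% Poisson intervals) in 6 ranges of the cell's Arg1 share, labelled by their lower end, in the PTIR1 and mock libraries. The dotted line marks the 0.1% threshold. Hypoxia response, glycolysis, neutrophil chemokine genes, Hilpda, Mmp12 and Mrc1 are highest in the top range of each library, and MHC class II and Cxcl9 lowest.

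Chemokines that draw neutrophils through the receptor CXCR2 had the largest median of the gene programme lists, cell type marker lists apart. All 5 measured genes were over 1.5-fold higher in Arg1-high cells of both libraries, with median log2 ratios of 1.96 in the PTIR1 and 2.18 in the mock library. Cxcl3 had 3012 CPM in Arg1-high and 773 CPM in Arg1-low cells of the PTIR1 library, and 1823 and 193 CPM in those of the mock library. Cxcl5 had 80.4 CPM in Arg1-high and 8.61 CPM in Arg1-low cells of the PTIR1 library, and 15.3 and 0.806 CPM in those of the mock library. Cxcl5, Ppbp, Pf4, Cxcl3 and Cxcl1 are neighbours on chromosome 5, with starts from 90759360 to 90891241, and all 5 were among the 12 genes furthest above 1 in both libraries. Pf4, platelet factor 4, a member of the same chemokine family that does not act through CXCR2, was 6.49-fold higher (interval 6.35 to 6.64) in the PTIR1 and 7.93-fold higher (interval 7.78 to 8.08) in the mock library. Cxcl5 was found in few cells, with 6.16% of PTIR1 and 2.98% of mock members at 2000 UMIs (10.6% and 5.81% at full depth), against 0.587% and 0% of B cells. Pf4 was found in 68.7% and 64.7% of members at 2000 UMIs and in 22.2% and 13.5% of B cells.

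Chemokines for monocytes and lymphocytes were higher as well, with 7 of 12 genes past 1.5-fold in the PTIR1 and 8 of 12 in the mock library, where 2 of 12 were at least 1.5-fold lower. Ccl7, a CCR2 ligand, had 2279 CPM in Arg1-high and 1017 CPM in Arg1-low cells of the PTIR1 library, and 2129 and 1052 CPM in those of the mock library. Ccl6 had 5509 CPM in Arg1-high and 2995 CPM in Arg1-low cells of the PTIR1 library, and 6213 and 3051 CPM in those of the mock library. The lymphocyte attractant Ccl5 had log2 ratios of -0.48 and -1.82 in the PTIR1 and mock libraries, at a level in members of both libraries under 5% of that in another gated cell class, so that free RNA from other cells is possible. Ccl8 differed in direction, with 125 CPM in Arg1-high and 90.1 CPM in Arg1-low cells of the PTIR1 library, and 126 and 247 CPM in those of the mock library.

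Matrix protease and lipid genes were higher in part. Mmp12, macrophage elastase, had 384 CPM in Arg1-high and 129 CPM in Arg1-low cells of the PTIR1 library, and 675 and 165 CPM in those of the mock library. Mmp13, collagenase 3, was 7.35-fold higher (interval 6.24 to 8.71) in the PTIR1 and 4.93-fold higher (interval 4.49 to 5.42) in the mock library. Ctsl, the lysosomal protease cathepsin L, had 3144 CPM in Arg1-high and 1185 CPM in Arg1-low cells of the PTIR1 library, and 3330.3 and 1183 CPM in those of the mock library, so its level in members was close in the libraries. Of the matrix and protease list, 6 of 20 genes in the PTIR1 and 12 of 18 in the mock library were at least 1.5-fold higher, and 3 of 20 and 1 of 18 at least 1.5-fold lower. Abca1, the cholesterol exporter, was 3.53-fold higher (interval 3.23 to 3.85) in the PTIR1 and 3.91-fold higher (interval 3.63 to 4.21) in the mock library. Of the lipid handling list, 7 of 15 and 5 of 15 genes were past 1.5-fold higher in the PTIR1 and mock libraries and 2 of 15 and 2 of 15 lower. Its median of 0.34 in the mock library was -0.32 against the C1q-high Arg1-low cells alone. Lpl, lipoprotein lipase, was lower in Arg1-high cells, with log2 ratios of -1.69 and -1.86. Pdpn, the membrane glycoprotein podoplanin, had 248 CPM in Arg1-high and 66.0 CPM in Arg1-low cells of the PTIR1 library, and 329.7 and 104 CPM in those of the mock library. Tnfrsf9, the costimulatory receptor 4-1BB, was 4.22-fold higher (interval 3.87 to 4.61) in the PTIR1 and 4.60-fold higher (interval 4.21 to 5.03) in the mock library.

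Of the arginine and polyamine list, Arg1 apart, 2 of 12 genes in the PTIR1 and 2 of 12 in the mock library were at least 1.5-fold higher in Arg1-high cells, 2 of 12 in the mock library were at least 1.5-fold lower, and the median was -0.15 and -0.19. The higher genes were Slc7a2, an arginine importer, with 29.7 CPM in Arg1-high and 9.61 CPM in Arg1-low cells of the PTIR1 library, and 29.9 and 15.7 CPM in those of the mock library, and Nos2, the inducible nitric oxide synthase that shares arginine with arginase, with 20.2 CPM in Arg1-high and 3.61 CPM in Arg1-low cells of the PTIR1 library, and 22.4 and 11.3 CPM in those of the mock library. Nos2 was found in 5.82% of PTIR1 and 7.85% of mock members at full depth. Odc1, which makes putrescine from ornithine, was lower in Arg1-high cells, with log2 ratios of -0.31 and -0.61, and Arg2, the mitochondrial arginase, was higher, with 0.52 and 0.54. The alternative activation list, which names genes of the interleukin 4 programme, had no common direction by gene counts. In the PTIR1 library 3 of 13 genes were higher and 3 of 13 lower, and in the mock library 4 of 11 and 4 of 11. In the PTIR1 library the list summed to 4300 CPM in Arg1-high and 3302 CPM in Arg1-low cells. In the mock library the list summed to 3345 and 2101 CPM, so its summed level was higher in Arg1-high cells of both. Its Mrc1 was 2.55-fold higher (interval 2.46 to 2.65) and 2.67-fold higher (interval 2.58 to 2.76), while Mgl2, a lectin of interleukin 4 macrophages, was 3.35-fold lower (interval 3.08 to 3.65) and 2.57-fold lower (interval 2.34 to 2.82) in the PTIR1 and mock libraries.

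MHC class II had the lowest median of the gene programme lists, cell type marker lists apart. In Arg1-high cells 8 of 9 genes were at least 1.5-fold lower in the PTIR1 and 8 of 8 in the mock library, with medians of -1.49 and -1.54. H2-Ab1, a beta chain, had 469.5 CPM in Arg1-high and 1440.1 CPM in Arg1-low cells of the PTIR1 library, and 660.4 and 1958 CPM in those of the mock library. H2-Eb1, whose promoter window above holds CCAAT on both strands, was 3.28-fold lower (interval 3.16 to 3.4) in the PTIR1 and 3.34-fold lower (interval 3.24 to 3.44) in the mock library. Ciita, the class II activator, was 2.46-fold lower (interval 1.98 to 3.08) and 3.91-fold lower (interval 3.28 to 4.71). The difference in the PTIR1 library depended on the comparison group: against Arg1-low cells with at least 0.1% C1q UMIs, 0 of 8 class II genes were past 1.5-fold lower (median -0.10), whereas in the mock library 7 of 8 were (median -1.59). Of all genes measured against those C1q-high cells, 15.6% in the PTIR1 and 14.0% in the mock library were past 1.5-fold lower. Markers of other class II-bearing cells were lower in members too. The conventional dendritic cell list summed to 24.6 CPM in Arg1-high and 81.6 CPM in Arg1-low cells of the PTIR1 library and 17.5 and 52.8 CPM in those of the mock library, with all 8 genes detected in each. The B cell list, with all 7 genes detected, summed to 55.4 and 93.7 CPM in the PTIR1 library and 20.5 and 76.4 CPM in the mock library. Their part in the result was not tested.

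Some monocyte genes, the C1q gene C1qa and most cell cycle genes were lower too. Of the monocyte list 5 of 12 genes in the PTIR1 and 6 of 12 in the mock library were at least 1.5-fold lower, and 2 of 12 in the mock library at least 1.5-fold higher, with medians of -0.35 and -0.63. Against the C1q-high Arg1-low cells alone these medians were above 0, at 0.39 and 0.91. Plac8, high in blood monocytes, had 499 CPM in Arg1-high and 1159 CPM in Arg1-low cells of the PTIR1 library, and 490.5 and 1272 CPM in those of the mock library. C1qa had 161 CPM in Arg1-high and 416 CPM in Arg1-low cells of the PTIR1 library, and 221 and 640.1 CPM in those of the mock library, although Maf, a transcription factor of mature macrophages, was higher, with log2 ratios of 1.35 in the PTIR1 and 1.22 in the mock library. The complement and tissue macrophage list as a whole had no common direction. In the PTIR1 library 6 of 16 genes were at least 1.5-fold higher and 4 of 16 lower, with a median of 0.34. In the mock library 5 of 16 were higher and 5 of 16 lower, with a median of -0.05. C1q-high cells made up 6.49% of PTIR1 and 5.49% of mock members, and 9.52% and 9.26% of Arg1-low cells. Cell cycle genes were at least 1.5-fold lower for 13 of 17 in the PTIR1 and 14 of 16 in the mock library. With the genes left out whose level in members was under 5% of that in another class, these counts were 6 of 10 and 7 of 9. That limit looks at members and not at Arg1-low cells, so it more readily drops genes that are low in members. The part of free RNA in the difference was not tested. Top2a, topoisomerase 2 alpha, was 2.69-fold lower (interval 2.18 to 3.33) and 2.37-fold lower (interval 2.0 to 2.83) in the PTIR1 and mock libraries.

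The osteoclast-type genes Ctsk, a bone-resorbing protease, and Acp5, its companion phosphatase, differed most between the libraries in Arg1-low cells. Ctsk had 13.2 CPM in PTIR1 and 10.7 CPM in mock members, but 251 CPM in PTIR1 and 11.7 CPM in mock Arg1-low cells. Acp5 had 15.4 and 11.8 CPM in PTIR1 and mock members, and 178 and 21.4 CPM in PTIR1 and mock Arg1-low cells. Retnla, a gene of interleukin 4 macrophages, had 6.12 CPM in PTIR1 members and no UMI in mock members, beside 74.4 CPM in PTIR1 and 0.332 CPM in mock Arg1-low cells. The osteoclast marker list summed to 38.9 CPM in Arg1-high and 469 CPM in Arg1-low cells of the PTIR1 library and to 28.5 and 47.8 CPM in those of the mock library, with Calcr at 0 except in PTIR1 Arg1-low cells.

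Interferon gamma response genes were lower in Arg1-high cells as well, and by more in the mock library. In the PTIR1 library 5 of 17 were at least 1.5-fold lower, with a median of -0.36, and in the mock library 14 of 17, with a median of -0.98. Whether the libraries differ in this was not tested. Cxcl9, the chemokine that draws T cells through CXCR3, had 50.5 CPM in Arg1-high and 162 CPM in Arg1-low cells of the PTIR1 library, and 219 and 583 CPM in those of the mock library. Of the phagocytosis and scavenger receptor list 7 of 13 genes were at least 1.5-fold higher in the PTIR1 and 5 of 13 in the mock library, and 1 of 13 and 3 of 13 at least 1.5-fold lower. Its medians of 0.63 and 0.53 were -0.20 and -0.47 against the C1q-high Arg1-low cells alone. Axl, a receptor for apoptotic cells, had 15.4 CPM in Arg1-high and 42.2 CPM in Arg1-low cells of the PTIR1 library, and 13.5 and 37.8 CPM in those of the mock library.

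**Figure D3:**
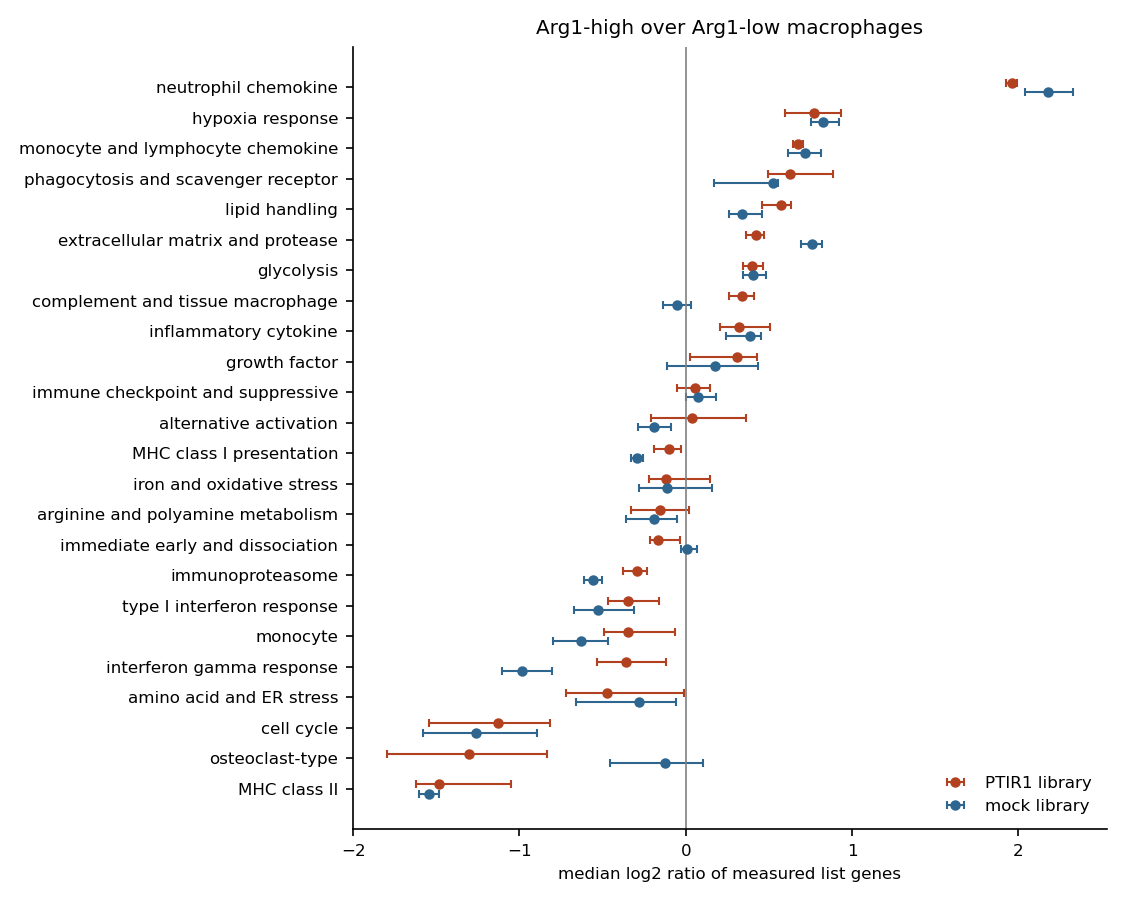
Median log2 ratio of the measured genes of each gene programme list (cell type marker lists are not drawn), Arg1-high over Arg1-low macrophages, in the PTIR1 and mock libraries. Bars join the medians of the genes' lower and upper interval ends. Neutrophil chemokines lie highest (1.96 and 2.18) and MHC class II lowest (-1.49 and -1.54) in the PTIR1 and mock libraries.

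The last comparison set members of the PTIR1 library against members of the mock library. Of 9569 measured genes 4.37% were at least 1.5-fold higher and 2.25% at least 1.5-fold lower in PTIR1 members, and the median log2 ratio was -0.02. Arg1-low cells are shown beside them, where 5.16% and 2.69% of 9752 genes were higher and lower.

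Interferon gamma response genes were lower in PTIR1 members. Of 17 measured, 13 were at least 1.5-fold lower and none higher, with a median log2 ratio of -0.75. In Arg1-low cells all 17 were past 1.5-fold lower, with a median of -1.26. With barcodes carrying UMIs of another lineage left out, 9 of 17 were past 1.5-fold in members. Cxcl9 had 50.5 CPM in PTIR1 members, against 219 CPM in mock members, 4.34-fold lower (interval 3.95 to 4.77). Gbp4, a guanylate-binding protein of cell-autonomous defence, had 36.0 CPM in PTIR1 members, against 78.2 CPM in mock members. Irf1, a transcription factor that interferon induces, was 1.52-fold lower (interval 1.35 to 1.72). Socs1, the feedback inhibitor of the pathway, was the exception with a ratio above 1, with 28.6 CPM in PTIR1 members, against 25.6 CPM in mock members. Ly6a, which interferon induces, was 2.71-fold lower (interval 2.45 to 3.0), Slamf8, a macrophage surface receptor, 3.18-fold lower (interval 2.48 to 4.11), and Iigp1, an immunity-related GTPase, 2.21-fold lower (interval 1.89 to 2.60). Tgtp2 and Gbp2b belong to families of near-identical copies, as do H2-DMb1 with H2-DMb2 and Hspa1a with Hspa1b, so that their counts are uncertain. Tgtp2 was 2.85-fold lower (interval 1.89 to 4.40) and Gbp2b 2.29-fold lower (interval 2.08 to 2.52) in PTIR1 members. Calhm6, which encodes a channel protein of macrophages, was 2.33-fold lower (interval 1.87 to 2.93). Among cells with at least 0.2% Arg1 alone, its log2 ratio was -0.58, under 1.5-fold, against -1.22 in all members, and that of Cxcl9 was -1.35, against -2.12.

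The immunoproteasome genes, whose products replace proteasome subunits in interferon-treated cells, all had ratios below 1 in members. Psmb9 had 157 CPM in PTIR1 members, against 241 CPM in mock members, and Psmb8 344 CPM in PTIR1 members, against 481 CPM in mock members. Their log2 ratios were -0.62 and -0.48 in members and -0.86 and -0.72 in Arg1-low cells. Over the 5 genes, 1 of 5 in members and 4 of 5 in Arg1-low cells were at least 1.5-fold lower. All 8 class II genes had ratios below 1 in members, and none reached 1.5-fold, with a median of -0.37. Of the class I presentation list 1 of 13 genes was past 1.5-fold lower, which was Nlrc5, the class I activator, with 8.81 CPM in PTIR1 members, against 14.5 CPM in mock members. Whether members and Arg1-low cells differ in these ratios was not tested.

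**Figure D4:**
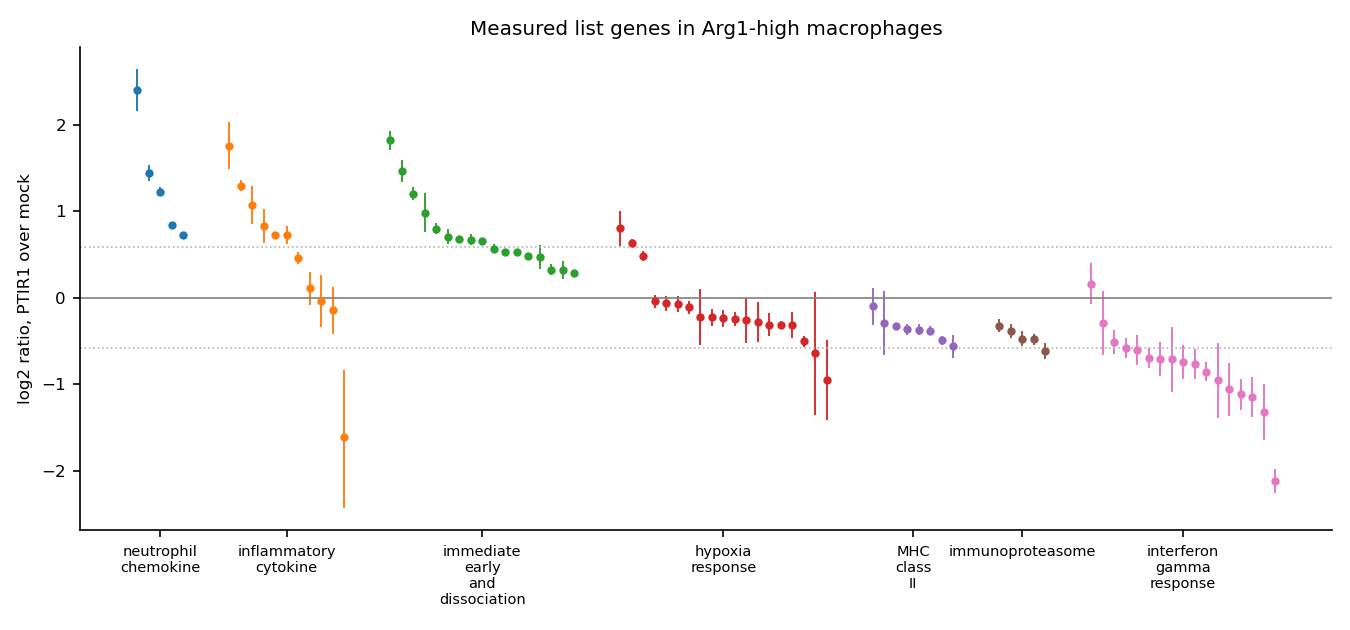
Log2 ratio, PTIR1 over mock, of each measured gene of 7 lists in Arg1-high macrophages, with 95% counting intervals; dotted lines mark 1.5-fold. All 5 neutrophil chemokine genes lie above the upper line, and 13 of 17 interferon gamma response genes lie below the lower line.

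Neutrophil chemokines were higher in PTIR1 members for 5 of 5 genes, with a median log2 ratio of 1.23. The median was 1.33 in Arg1-low cells, with 3 of 4 genes past 1.5-fold higher. In interferon-stimulated macrophages it was 0.99 over 4 measured genes, beside a median of -0.02 over all measured genes. The difference was thus not particular to members. Cxcl5 had 80.4 CPM in PTIR1 members, against 15.3 CPM in mock members, a ratio of 5.26 (interval 4.46 to 6.25). Cxcl1 had 963 CPM in PTIR1 members, against 412 CPM in mock members, a ratio of 2.34 (interval 2.26 to 2.42), and in Arg1-low cells 349 CPM in the PTIR1 and 139.7 CPM in the mock library. Ppbp had 323 CPM in PTIR1 members, against 119 CPM in mock members. Pf4, beside them on chromosome 5, was not higher, with 4406 CPM in PTIR1 members, against 4852 CPM in mock members. Neutrophil markers were also higher in PTIR1 members, with a summed level of 1153 CPM and all 9 genes detected. Mock members had 701 CPM, with 7 of 9 detected and no UMI of the granule genes Ngp and Camp. In Arg1-low cells these markers summed to 989 CPM in the PTIR1 and 424 CPM in the mock library, so this difference was not particular to members. S100a8 had 518 CPM in PTIR1 members, against 265 CPM in mock members. With barcodes that carried UMIs of another lineage left out (128 PTIR1 and 82 mock members), the list's median was 1.08 and 4 of its genes were past 1.5-fold.

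Inflammatory cytokines and growth factors followed in the same direction. Of 11 inflammatory genes, 6 were at least 1.5-fold higher, and Il27 was lower, at 1.76 CPM in PTIR1 members, against 5.37 CPM in mock members. Osm, which encodes oncostatin M, had 684 CPM in PTIR1 members, against 279 CPM in mock members, a ratio of 2.45 (interval 2.35 to 2.56). Il1a had 46.6 CPM in PTIR1 members, against 13.8 CPM in mock members, and Il1b 1970.1 CPM in PTIR1 members, against 1189.9 CPM in mock members. Il6 had 47.9 CPM in PTIR1 members, against 22.9 CPM in mock members. All 4 were thus higher in the PTIR1 library. The inflammatory median was 0.72 in members and 0.60 in Arg1-low cells, where 5 of 10 genes were past 1.5-fold higher and 1 of 10 lower. Of the growth factor list 5 of 10 genes were past 1.5-fold higher in members, with a median of 0.89. In Arg1-low cells 5 of 9 were, with a median of 0.71. Areg, the EGF receptor ligand amphiregulin, had 43.8 CPM in PTIR1 members, against 6.27 CPM in mock members, Hbegf, another such ligand, 168 CPM in PTIR1 members, against 64.4 CPM in mock members, and Csf1, the ligand of the receptor in the gate, 16.9 CPM in PTIR1 members, against 6.82 CPM in mock members. Areg is also a gene of the CT26 marker list, which summed to 65.3 CPM in PTIR1 members with 7 of 8 genes detected and 17.9 CPM in mock members with 6 of 8.

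Immediate early genes, which handling and dissociation can induce, were higher beside these results, and their part in them was not tested. All 17 had ratios above 1 in PTIR1 members, 9 of them past 1.5-fold, with a median of 0.65. In Arg1-low cells 11 of 17 were past 1.5-fold higher, with a median of 0.72. Egr1 had 276 CPM in PTIR1 members, against 78.2 CPM in mock members, and Klf2 456 CPM in PTIR1 members, against 199 CPM in mock members. When members were split into 3 ranges of immediate early RNA and the ranges weighed the same, the median of the neutrophil chemokine list was 0.75 with 3 of 5 genes past 1.5-fold. The inflammatory cytokine median was 0.25 with 2 of 11, and the interferon gamma response median -0.76 with 14 of 17 lower. The lower range held 109 PTIR1 and 304 mock cells and the upper range 289 and 124.

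The hypoxia response list as a whole was not higher in PTIR1 members, at a median of -0.24 and with summed levels of 4001 CPM in PTIR1 and 4069.7 CPM in mock members. Its genes parted. Hilpda had a ratio of 1.55 (interval 1.5 to 1.60), Ddit4, an inhibitor of mTOR signalling that stress induces, 1.74 (interval 1.52 to 2.0), and Vegfa 1.39 (interval 1.34 to 1.46), while the other 16 measured genes had ratios below 1, of which 2 were past 1.5-fold lower. Ndrg1, a hypoxia-induced stress gene, had 275 CPM in PTIR1 members, against 391 CPM in mock members, and Egln3 56.7 CPM in PTIR1 members, against 70.7 CPM in mock members. The glycolysis list had ratios below 1 for 12 of 13 genes, with a median of -0.17 and none past 1.5-fold.

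Among single genes, Mmp12 had 384 CPM in PTIR1 members, against 675 CPM in mock members, 1.76-fold lower (interval 1.69 to 1.83), and Mmp13 was 1.54-fold lower (interval 1.42 to 1.66), whereas Mmp9, gelatinase B, was 1.59-fold higher (interval 1.51 to 1.68). Hmox1, the haem-degrading enzyme, had 429 CPM in PTIR1 members, against 224 CPM in mock members. Slc7a11, the cystine importer, was 1.95-fold higher (interval 1.79 to 2.13), and Mt2, a metallothionein, 3.10-fold higher (interval 2.72 to 3.54). Of the alternative activation list 6 of 12 genes were past 1.5-fold higher in PTIR1 members and none lower, with a median of 0.52. In Arg1-low cells 5 of 12 were past 1.5-fold higher, with a median of 0.56. Chil3, a chitinase-like lectin of monocytes and interleukin 4 macrophages, had 131 CPM in PTIR1 members, against 28.0 CPM in mock members, and the scavenger receptor gene Cd163 10.3 CPM in PTIR1 members, against 1.64 CPM in mock members. Ltc4s, which makes leukotriene C4, was 8.19-fold higher (interval 5.52 to 12.6) and was the sole gene among the 12 furthest above 1 that was not below 5% of its level in another gated class. Its log2 ratio was 3.03 in members and 3.38 in Arg1-low cells, so the difference was not particular to members. Pmp22, a membrane protein gene, had 5.93 CPM in PTIR1 members, against 14.8 CPM in mock members.

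The other 11 of those 12 genes were below 5% of their level in another class. They were Mmp3, Cp, Ogn, Cavin2, Ccn1, Col3a1, Fgfr1, Mgp, Dcn, Sema5a and Wfdc21, of which Col3a1 and Dcn are matrix genes of fibroblasts. Mmp3, stromelysin 1, had 21.0 CPM in PTIR1 members and no UMI in mock members, at least 77.2-fold higher against 3 UMIs in the mock group. With the highest doublet scores left out (28 PTIR1 and 13 mock members), the log2 ratio was 4.15 for Cp, against 6.30 in all members. It was 2.76 for Ogn, against 4.82, and 2.33 for Cavin2, against 4.16. For Mmp3, which kept no UMI in mock members, the log2 value against the floor of 3 UMIs was then 3.80. The 77.2-fold value in all members was counted in the same way. The fibroblast marker list summed to 60.5 CPM in PTIR1 members with all 8 genes detected and 9.0 CPM in mock members, where Lum had no UMI, and the gates held 135 fibroblasts in the PTIR1 and 2 in the mock library. The mast cell protease genes Mcpt4 and Tpsab1 were 5.94-fold lower (interval 4.16 to 8.70) and 2.70-fold lower (interval 2.18 to 3.38) and were under the same limit, beside a mast cell or basophil list of 29.3 CPM in PTIR1 and 58.1 CPM in mock members and gates of 48 and 142 cells. The part of free RNA and of doublets in these values was not tested. Among genes lower in Arg1-high than in Arg1-low cells, Esm1, Tm4sf1, Hmga2, Rhox5, Lgals7, Tmem176a and Tmem176b lay under the same limit, with log2 ratios in the PTIR1 and mock libraries of -3.80 and -2.78 for Esm1 and -1.98 and -2.03 for Tmem176b. Above it were Klrb1b, a C-type lectin-like receptor gene, with -2.25 and -2.27 (-0.29 in the PTIR1 library against the C1q-high Arg1-low cells), and the lectin gene Clec4b1, with -2.03 and -2.16.

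**Figure D5:**
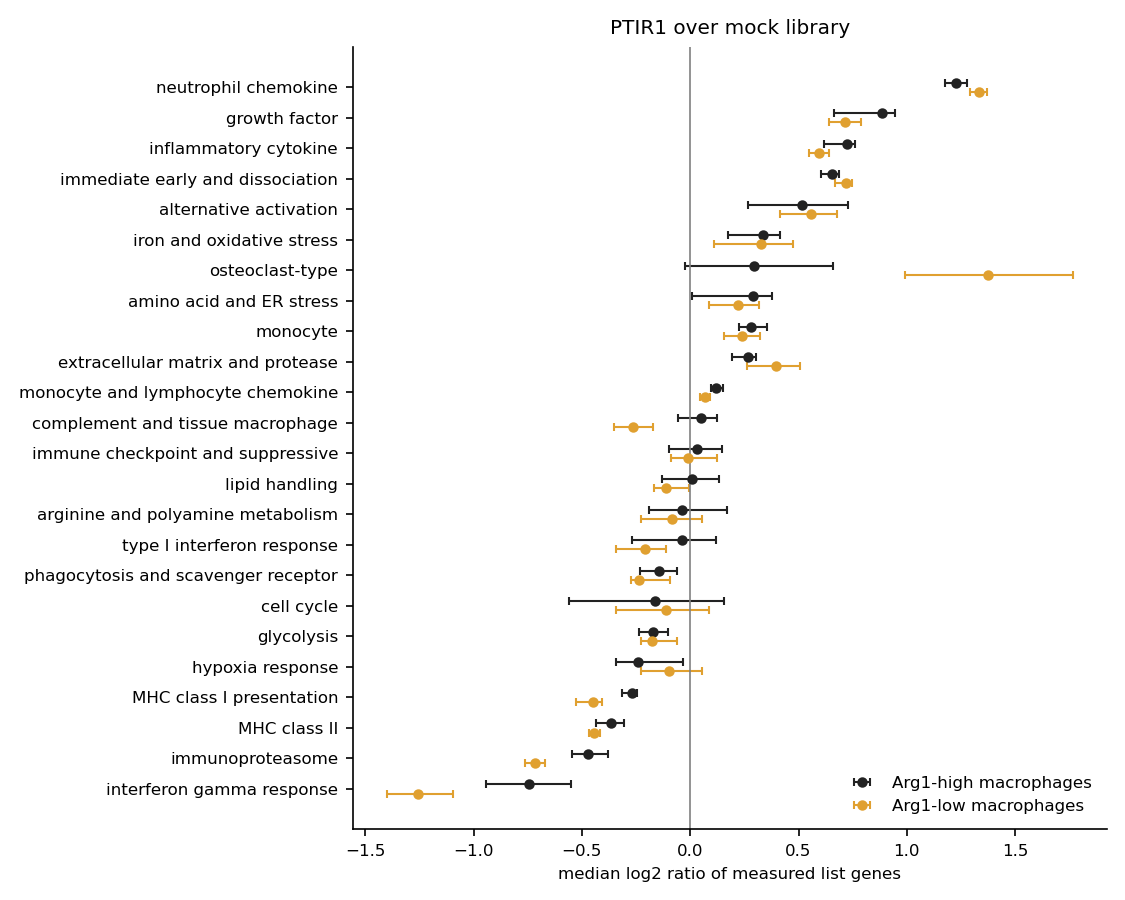
Median log2 ratio of the measured genes of each gene programme list (cell type marker lists are not drawn), PTIR1 over mock library, in Arg1-high and in Arg1-low macrophages. Bars join the medians of the genes' lower and upper interval ends. In members neutrophil chemokines lie highest (1.23, beside 1.33 in Arg1-low cells). The interferon gamma response lies lowest (-0.75 in members, -1.26 in Arg1-low cells).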

How the data were processed

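The authors deposited raw UMI counts for each gene and barcode of both libraries. Per the file headers, Cell Ranger 5.0.0 produced them, and build mm10 and Seurat 3.2.3 stand in the submitters' processing notes. Which annotation was counted is not stated there. Gene positions are from GENCODE vM21, in which 398 of 398 list genes with a row carried the same symbol, out of 402 listed.

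Members were found by the gate given in the report, and the members and the 24 gene lists and 13 marker lists were chosen with earlier results of these data known. UMIs were summed over the cells of a group and divided by their total (CPM). Levels have exact Poisson, ratios exact conditional binomial and shares exact binomial intervals, and ratios of shares normal intervals on the log scale, all at 95%. They cover counting error only, and no test was made, since there is 1 library per group. A gene was measured with at least 50 UMIs over both groups and a UMI in at least 5% of the cells of either, and a gene whose level in members of both libraries was under 5% of that in another gated class of at least 50 cells was marked as possible free RNA. Where a group had no UMI, a floor of 3 UMIs stood in for it, and the resulting value is not an interval end. Doublets were scored with Scrublet in scanpy 1.11.5 and kept. Its automatic threshold called 87 of 7567 PTIR1 and 0 of 9328 mock barcodes, so that removing the highest scores (458 and 696 barcodes, among them 28 and 13 members) was an alternative. For shares of cells with a UMI, 2000 UMIs were drawn per cell. The intervals were tested on simulated counts drawn with independent Poisson error. That test cannot cover spread between cells or doublets.

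Genes named singly were the 12 in each direction whose interval end nearest to 1 lay furthest from it (in the less extreme library for Arg1-high over Arg1-low), without rule genes, predicted, mitochondrial, ribosomal, receptor segment and sex-linked genes, and up to 4 of a list ranked in the same way. Car9, Il1b, Irf1, Socs1 and Retnla stood outside this rule and were named after their values were seen, as were genes given for a level of 0 or for their sequence. Computations ran in Python 3.11.15 (scipy 1.17.1, numpy 2.4.6, pandas 2.3.3), and plots were drawn with matplotlib 3.10.9.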

Additional observations from a re-analysis of the deposited data

Results flagged for a closer look

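In 6 genes named in the text, a ratio lay on opposite sides of 1 in the groups compared, with counting intervals that leave out 1 on either side. These differences between ratios were not tested, since each library stands alone. For PTIR1 over mock, Ccl5 had a log2 ratio of 0.51 in Arg1-high and -0.83 in Arg1-low macrophages. Lgals7, a galectin gene, had 0.59 in Arg1-high and -0.19 in Arg1-low macrophages. Both genes lay below 5% of their level in another gated class in members of both libraries. Pf4 had -0.14 in Arg1-high and 0.15 in Arg1-low macrophages, and Ccl7 0.10 and -0.05. For Arg1-high over Arg1-low macrophages, Ccl8 had a log2 ratio of 0.47 in the PTIR1 and -0.98 in the mock library, and Socs1 0.33 in the PTIR1 and -0.82 in the mock library.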

How the results depend on the processing

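Over 273 alternative values of 23 shares and counts, 239 kept their direction and stayed within their interval or within 1.5 times the reported count, 33 moved and 1 changed direction. Of 888 values of list medians, 725 stayed within their interval and 61, some of them within it, changed sign, 3 of these from past 1.5-fold. Of 888 values of named genes, 630 stayed within their interval, 108 moved by over 1.5 times, 18 went under 1.5-fold and 4 changed sign. With barcodes carrying UMIs of another lineage left out of members and of all deep barcodes alike, the ratio of shares was 1.03 (15.1% in PTIR1, 14.7% in mock). Against C1q-high Arg1-low cells, 2357 genes passed 1.5-fold in the PTIR1 library (925 higher, 1432 lower) and 2157 in the mock library (864 and 1293), 0 class II genes were lower in the PTIR1 library and 12 of 48 medians changed sign. Among them were the monocyte medians (0.39 in the PTIR1 and 0.91 in the mock library), the phagocytosis medians (-0.20 and -0.47), the complement median in the PTIR1 library (-1.43) and the lipid median in the mock library (-0.32). The C1q-high cells were chosen by their C1q level, so the complement median against them is no separate result. In the PTIR1 library Tm4sf1 and Tmem176a changed sign, to 0.029 and 0.13. With C1q groups weighing the same (39 PTIR1 and 35 mock cells in the smaller), 1477 genes passed between the libraries (910 higher, 567 lower). With a limit of 20 UMIs and none on cells, the counts were 2115 (542, 1573) in the PTIR1 library, 2312 (597, 1715) in the mock library and 1382 (966, 416) between libraries. At 2000 UMIs per cell fewer genes were measured, with 592 past 1.5-fold in the PTIR1 library (337 lower), 625 in the mock library (371 lower), 380 between libraries (201 higher), 7 interferon gamma response genes lower, 0 of 1 cell cycle genes lower in each library and an osteoclast-type median of 0.045 over 3 genes in the PTIR1 library; 14 of 72 medians changed sign, and Pmp22 between libraries was at -0.46. With immediate early ranges weighing the same, 3 immediate early, 2 inflammatory and 3 neutrophil chemokine genes passed. The ranges were made from the immediate early list itself, so the count for that list is no separate result. Without possible free RNA genes, an alternative chosen after seeing the data, 6 and 7 cell cycle genes were lower in the PTIR1 and mock libraries. With each cell weighing the same, Hmga2 and Rhox5 changed sign, to 0.074 and 0.012 in the mock library. Except where an alternative itself changes the genes or cells counted, the cause was not tested. No paired analysis was possible because each group has 1 library. The single library per group limits every comparison between PTIR1 and mock, whatever the depth.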

Other observations

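For PTIR1 over mock, the type I interferon list had a median log2 ratio of -0.04 in members. Of its 16 measured genes, 1 was at least 1.5-fold lower and none higher. The rule genes Rsad2, Ifit1, Ifit2 and Ifit3 were not counted. The rule held members of both libraries under 0.1% for those genes together, so cells with a strong response were left out. A small difference in members is therefore no separate result. With no limit on those genes, the median was 0.007 over 16 genes. Irf7, the factor that amplifies type I interferon, had 186 CPM in PTIR1 members, against 151 CPM in mock members, and Zbp1, a nucleic acid sensor, 86.2 CPM in PTIR1 members, against 106 CPM in mock members. Beyond the gate, Arg1 reached 0.1% of UMIs in 53 of 123 interferon-stimulated macrophages of the PTIR1 library (43.1%, exact binomial interval 34.2 to 52.3%) and 52 of 183 of the mock library (28.4%, 22.0 to 35.5%).

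The immune checkpoint and suppressive list had 2 of 14 genes at least 1.5-fold higher and 1 of 14 lower in PTIR1 members. Cd274, which encodes PD-L1, had 124 CPM in PTIR1 members, against 134 CPM in mock members, and Il18bp, the decoy receptor of interleukin 18, 13.1 CPM in PTIR1 members, against 23.1 CPM in mock members. Nt5e, the ectoenzyme CD73 that makes adenosine, was 1.75-fold higher (interval 1.56 to 1.96) in Arg1-high than in Arg1-low cells of the PTIR1 library and 1.74-fold higher (interval 1.57 to 1.94) in the mock library. Of the amino acid and ER stress list, Asns, asparagine synthetase, had 31.2 CPM in PTIR1 members, against 20.6 CPM in mock members.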
